A study of Homo sapiens with 6 samples.

Results

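Autophagy genes were examined in Mono-Mac-6 cells, a human monocytic acute myeloid leukaemia line with the MLL-AF9 fusion, after CRISPR-Cas9 targeting of METTL1. The 35 genes were taken by symbol from the deposited table, and all 35 were among its 18806 gene symbols. They are 14 genes of initiation, 10 of the conjugation machinery, 4 of the LC3 and GABARAP family, 6 cargo receptors and the regulator FOXO3. All groups derive from 1 Cas9-expressing clone, so the comparison rests on a single clone of a single line. Each group received its guide RNA by lentivirus, and the labels of all 6 libraries also carry the letters EV, which they do not explain. Selection used 10 µg/ml blasticidin together with 200 µg/ml hygromycin B, and cells were collected 8 to 10 days after transduction. The groups were sgMETTL1.6 and sgMETTL1.3, 2 guides against METTL1, and sgNS, the control guide, with 2 poly(A) RNA sequencing libraries each and 6 in all. METTL1 is the methyltransferase that, with WDR4, adds N7-methylguanosine to tRNAs. The comparison asks how these genes' transcripts differ when METTL1 is targeted.

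Autophagy encloses cytoplasm and damaged organelles in a double membrane, the autophagosome, which then fuses with lysosomes. The ULK1 kinase complex starts the process, the VPS34 lipid kinase complex marks the growing membrane with phosphatidylinositol 3-phosphate, and WIPI and ATG2 proteins read that mark and bring in lipid. A ubiquitin-like conjugation system then couples LC3 and GABARAP proteins to the membrane, where cargo receptors bind them. In leukaemia cells the pathway is known for the turnover of mitochondria and of protein aggregates. RNA levels do not measure the flow of cargo to lysosomes.

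Levels are in TPM, an estimate of each gene's share of the transcripts in a library, corrected for length. The read depth is unknown because TPM does not keep it. Nothing in the labels ties the 2 libraries of a group to separate cultures, and the spread behind the p-values may thus be technical. Over the 35 genes, libraries of a group differed by a median of 3.33% (sgMETTL1.6), 3.01% (sgMETTL1.3) and 2.86% (sgNS) of their mean. METTL1 mRNA stood at 11.2 and 11.7 TPM in the sgMETTL1.6 libraries, 18.3 and 16.6 TPM in the sgMETTL1.3 libraries and 15.4 and 13.9 TPM in the sgNS libraries. Its log2 change against sgNS was -0.33 with sgMETTL1.6 (limma, adjusted p = 0.0017) and 0.24 with sgMETTL1.3 (adjusted p = 0.011), so the targeted gene's mRNA was not lower in the libraries labelled sgMETTL1.3. Gene-level TPM does not read small insertions or deletions, so METTL1 editing and protein were not checked by it, and guide names denote libraries as labelled throughout. Of 10 monocytic markers, 7 were tested and 3 (CD14, CSF1R and CD4) averaged under 1 TPM. Over both guides 5 of the 7 fell (CD86, FCGR1A, CD68, ITGAM and LYZ) and SPI1 rose, against 26.8% and 32.6% of all genes tested. LYZ did not pass with sgMETTL1.3 alone (log2 change -0.045, limma, adjusted p = 0.18). SPI1 did not pass with sgMETTL1.6 alone (log2 change 0.088, limma, adjusted p = 0.094). The summed level of the 10 was 9747 to 10131 TPM in the sgMETTL1.6 libraries, 11344 to 11420 TPM in the sgMETTL1.3 libraries and 11439 to 12007 TPM in the sgNS libraries, most of it from LYZ. Whether these marker shifts take part in the autophagy results was not tested. The 10 markers of T, B, erythroid, epithelial, stromal and endothelial cells summed to between 0.64 and 1.01 TPM in each library, and CD3D, CD3E, MS4A1 and HBB were listed at 0 in all 6.

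The autophagy genes moved unevenly, with the membrane-coupled LC3 and GABARAP family and the cargo receptors lower with the METTL1 guides and most of the conjugation machinery near the control level. Over both guides, 16 of the 35 genes fell and 3 rose (limma on log2(TPM + 1), adjusted p under 0.05), while 16 did not pass the test. Among the 10911 genes tested, 26.8% fell and 32.6% rose, so falls were more frequent and rises less frequent among the autophagy genes than that background; this contrast with the background was not tested. The background itself shifted with the scaling, to 29.8% lower and 28.7% higher after median-ratio scaling and to 29.5% lower and 28.1% higher without ribosomal protein genes, where the autophagy genes counted 16 and 17 falls and 3 rises each. In such bulk samples, fewer cells of a type and less RNA per cell cannot be told apart. The median log2 change was -0.09 over the 35 genes and 0.02 over all genes tested. Of the genes that passed, 11 that fell and 0 that rose had changed by 0.3 or more on the log2 scale, where 12.1% of all genes tested fell and 12.1% rose by that much. All 4 guide libraries lay below both sgNS libraries for 19 of the 35 genes and above them for 4, against 27.3% and 32.9% of all genes. Of the 16 falls, 14 stayed past the test in each of 13 alternative analyses, and of the 3 rises 1 did. Without sgNS replicate 1 the rises numbered 1.

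Levels differed widely between members. In the sgNS libraries, GABARAP was the highest at 331 ± 2.6 TPM (SD, n = 2) and ULK2 the lowest at 2.08 ± 0.071 TPM. Summed over the 35 genes, autophagy transcripts took 1512 and 1515 TPM in the sgMETTL1.6 libraries, 1605 and 1579 TPM in the sgMETTL1.3 libraries and 1818 and 1834 TPM in the sgNS libraries. The receptors summed to 381 and 381 TPM with sgMETTL1.6, 453 and 450.0 TPM with sgMETTL1.3 and 543 and 552 TPM with sgNS. The LC3 and GABARAP family summed to 403 and 404 TPM with sgMETTL1.6, 403 and 391 TPM with sgMETTL1.3 and 507 and 514 TPM with sgNS. The conjugation genes, in contrast, summed to 314.5 and 314 TPM with sgMETTL1.6, 326 and 316 TPM with sgMETTL1.3 and 314 and 309.9 TPM with sgNS, so the sgMETTL1.6 and sgNS libraries overlapped and both sgMETTL1.3 libraries lay above them. A sum is governed by its most abundant members, GABARAP and SQSTM1.

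**Figure D1:**
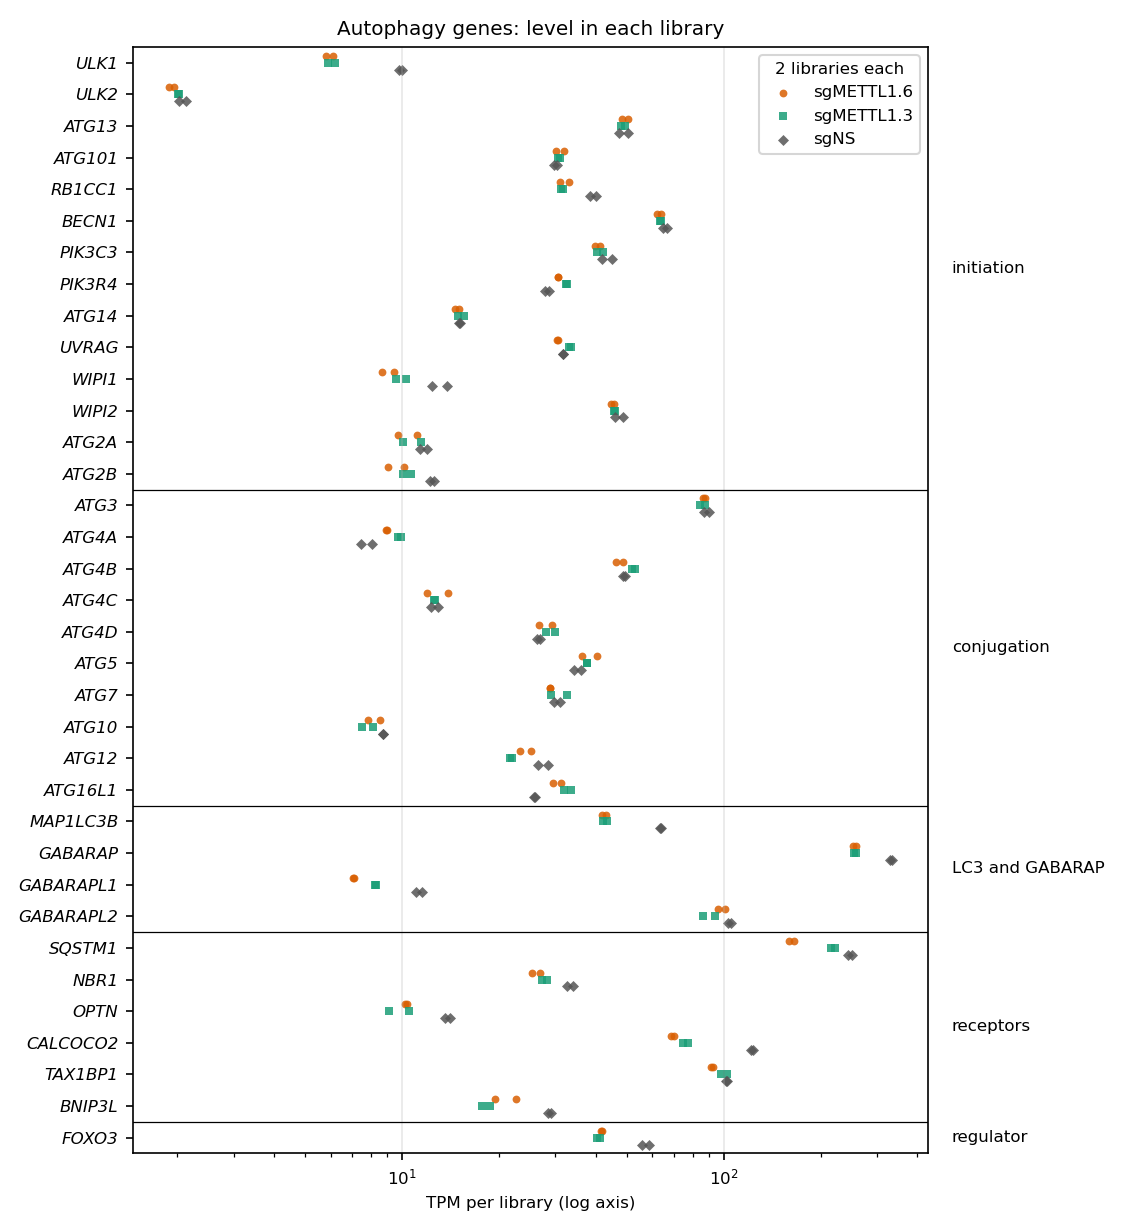
TPM of the 35 autophagy genes in each of the 6 libraries (log axis), by role, with sgMETTL1.6 (circles) above sgMETTL1.3 (squares) and sgNS (diamonds). GABARAP is the most abundant and ULK2 the least, and in the LC3 and GABARAP family all guide libraries lie below both sgNS libraries.

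Of the 14 genes that start autophagosome formation, 4 fell, 1 rose and 9 did not pass (median log2 change -0.06), where 26.8% of all genes tested fell and 32.6% rose. The share that fell was thus near that background. ULK1, the kinase that triggers autophagy when nutrients are short (chromosome 12, 131894651 to 131923167, plus strand, GENCODE 29 on GRCh38, as for all gene positions here), showed 6.10 and 5.81 TPM in the sgMETTL1.6 libraries, 5.88 and 6.17 TPM in the sgMETTL1.3 libraries and 10.03 and 9.77 TPM in the sgNS libraries. The 4 guide libraries lay close together, far below both control libraries (log2 change -0.64 ± 0.063 SE, adjusted p = 1.9e-06). Its mean TPM fell by 39.5%. The paralogue ULK2, which can stand in for ULK1, had 1.95 and 1.89 TPM with sgMETTL1.6, 2.01 and 2.02 TPM with sgMETTL1.3 and 2.13 and 2.03 TPM with sgNS, and its change did not pass (log2 change -0.05, 95% interval -0.24 to 0.13). RB1CC1, also called FIP200, the scaffold of the ULK1 complex (chromosome 8, 52622456 to 52745843, minus strand), had 32.99 and 31.1 TPM in the sgMETTL1.6 libraries, 31.6 and 31.1 TPM in the sgMETTL1.3 libraries and 40.03 and 38.5 TPM in the sgNS libraries. Guide and control libraries did not overlap (log2 change -0.30 ± 0.044 SE, adjusted p = 6.6e-05). The other subunits did not pass: the adaptor ATG13 (log2 change 0.01, 95% interval -0.08 to 0.10) and ATG101, which stabilises ATG13 (log2 change 0.04, 95% interval -0.05 to 0.14).

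In the lipid kinase complex, none of the 5 genes fell and 1 rose in the analysis reported here. Of all genes tested, 26.8% fell and 32.6% rose. BECN1, the regulatory subunit beclin 1, had 61.97 and 63.8 TPM with sgMETTL1.6, 63.5 and 63.6 TPM with sgMETTL1.3 and 66.6 and 64.9 TPM with sgNS (log2 change -0.06, 95% interval -0.13 to 0.02). PIK3C3, which encodes the lipid kinase VPS34, had 41.2 and 39.8 TPM with sgMETTL1.6, 42.1 and 40.4 TPM with sgMETTL1.3 and 44.9 and 41.8 TPM with sgNS (log2 change -0.08, 95% interval -0.18 to 0.01). It passed as lower in 2 of 13 alternatives, without ribosomal protein genes (limma, log2 change -0.11, adjusted p = 0.047) and with a replicate block (adjusted p = 0.0495), and its log2 change lay between -0.13 and -0.03 over the alternatives. The autophagy-specific subunit ATG14 (log2 change 0.00, 95% interval -0.11 to 0.11) and the alternative subunit UVRAG (log2 change 0.01, 95% interval -0.08 to 0.10) stood close to control. PIK3R4, the scaffold subunit VPS15 that holds the kinase, rose, with 30.5 and 30.5 TPM with sgMETTL1.6, 32.4 and 32.5 TPM with sgMETTL1.3 and 27.9 and 28.6 TPM with sgNS (log2 change 0.15 ± 0.042 SE, adjusted p = 0.0078). Its guide libraries all lay above both controls, and the call was lost in 1 of 13 alternatives, without sgNS replicate 1 (adjusted p = 0.082, log2 change 0.12 to 0.17 over the alternatives).

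Among genes acting on the marked membrane, WIPI1, which binds phosphatidylinositol 3-phosphate (chromosome 17, 68420948 to 68457513, minus strand), had 9.45 and 8.69 TPM in the sgMETTL1.6 libraries, 9.60 and 10.3 TPM in the sgMETTL1.3 libraries and 12.4 and 13.8 TPM in the sgNS libraries. The guide libraries lay below both controls (log2 change -0.43 ± 0.064 SE, adjusted p = 8.1e-05). Its relative WIPI2, which recruits the conjugation machinery, had 45.5 and 44.7 TPM with sgMETTL1.6, 45.9 and 45.7 TPM with sgMETTL1.3 and 46.04 and 48.6 TPM with sgNS and did not pass (log2 change -0.06, 95% interval -0.14 to 0.03). Of the lipid transfer proteins, ATG2B fell, with 10.1 and 9.04 TPM with sgMETTL1.6, 10.7 and 10.1 TPM with sgMETTL1.3 and 12.6 and 12.3 TPM with sgNS (log2 change -0.29 ± 0.061 SE, adjusted p = 0.0013). ATG2A had 9.72 and 11.1 TPM with sgMETTL1.6, 11.5 and 10.1 TPM with sgMETTL1.3 and 11.4 and 11.98 TPM with sgNS. Its groups overlapped (log2 change -0.13, 95% interval -0.28 to 0.02). Over the alternatives its log2 change lay between -0.18 and -0.09, lowest without sgMETTL1.6 replicate 2.

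Of the 10 genes that process LC3 and attach it to the membrane, 2 rose, 1 fell and 7 did not pass (median log2 change 0.02), against 32.6% of all genes tested that rose and 26.8% that fell. ATG16L1, which places the conjugation enzyme on the membrane (chromosome 2, 233210051 to 233295674, plus strand), rose, with 29.4 and 31.2 TPM in the sgMETTL1.6 libraries, 33.5 and 31.8 TPM in the sgMETTL1.3 libraries and 25.8 and 25.8 TPM in the sgNS libraries (log2 change 0.28 ± 0.046 SE, adjusted p = 2.0e-04). The control libraries were nearly equal and every guide library was higher. Its partner ATG12, a ubiquitin-like protein, fell, with 25.3 and 23.4 TPM with sgMETTL1.6, 21.6 and 21.9 TPM with sgMETTL1.3 and 28.5 and 26.5 TPM with sgNS (log2 change -0.25 ± 0.051 SE, adjusted p = 1.0e-03). ATG5, to which ATG12 is joined, had 40.4 and 36.3 TPM with sgMETTL1.6, 37.7 and 37.5 TPM with sgMETTL1.3 and 36.1 and 34.3 TPM with sgNS and did not pass (log2 change 0.11, 95% interval 0.00 to 0.21, adjusted p = 0.075). All 4 guide libraries lay above both controls for ATG5. With a replicate block it passed as higher (limma, adjusted p = 0.0305). Its log2 change lay between 0.07 and 0.14 over the alternatives, highest without sgMETTL1.6 replicate 2. Of the 3 components of this complex, 1 rose, 1 fell and 1 did not pass in the analysis reported here.

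Of the other conjugation enzymes, ATG4A rose and 6 did not pass, where 32.6% of all genes tested rose and 26.8% fell. ATG7, the activating enzyme of both conjugation branches, had 28.8 and 28.8 TPM with sgMETTL1.6, 32.5 and 29.03 TPM with sgMETTL1.3 and 29.8 and 31.1 TPM with sgNS (log2 change -0.03, 95% interval -0.14 to 0.08). ATG3, which transfers LC3 to the lipid, had 86.5 and 87.5 TPM with sgMETTL1.6, 87.8 and 84.7 TPM with sgMETTL1.3 and 89.9 and 86.8 TPM with sgNS (log2 change -0.03, 95% interval -0.10 to 0.05). ATG10, which transfers ATG12, had 8.56 and 7.82 TPM with sgMETTL1.6, 7.49 and 8.14 TPM with sgMETTL1.3 and 8.70 and 8.70 TPM with sgNS, with both sgNS libraries at the same value (log2 change -0.11, 95% interval -0.25 to 0.03). Of the ATG4 proteases, which trim LC3 and release it again, ATG4A rose, with 8.96 and 8.92 TPM with sgMETTL1.6, 9.69 and 9.91 TPM with sgMETTL1.3 and 7.44 and 8.09 TPM with sgNS (log2 change 0.24 ± 0.061 SE, adjusted p = 0.0038), and its call was lost in 1 of 13 alternatives, without sgNS replicate 1 (adjusted p = 0.068, log2 change 0.17 to 0.30 over the alternatives). ATG4B had 46.2 and 48.6 TPM with sgMETTL1.6, 52.9 and 52.01 TPM with sgMETTL1.3 and 48.7 and 49.5 TPM with sgNS, with both sgMETTL1.6 libraries below the controls and both sgMETTL1.3 libraries above them (log2 change 0.02, 95% interval -0.06 to 0.11). ATG4B over both guides, ATG4C (log2 change 0.01, 95% interval -0.12 to 0.15) and ATG4D (log2 change 0.09, 95% interval -0.02 to 0.20) did not pass. The change of ATG4D lay between 0.06 and 0.13 over the alternatives, highest without sgMETTL1.6 replicate 1. ATG4A was the lowest of the 4 in TPM, and ATG4B the highest.

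The 4 genes of the LC3 and GABARAP family among the 35 all fell (median log2 change -0.44), against 26.8% of all genes tested. In each the 4 guide libraries lay below both controls, against 27.3% of all genes tested. The ubiquitin-like proteins of this family sit on the autophagosome membrane and are bound there by receptors. MAP1LC3B, the LC3 form used as the standard autophagosome marker (chromosome 16, 87383995 to 87404779, plus strand), had 41.7 and 43.1 TPM in the sgMETTL1.6 libraries, 43.3 and 42.2 TPM in the sgMETTL1.3 libraries and 63.4 and 63.7 TPM in the sgNS libraries. The 4 guide libraries lay close together and well below the controls (log2 change -0.57 ± 0.038 SE, adjusted p = 5.9e-08), and mean TPM fell by 33.0%. GABARAP, the founding member of its subfamily (chromosome 17, 7240014 to 7242770, minus strand), had 253 and 257 TPM in the sgMETTL1.6 libraries, 258 and 255 TPM in the sgMETTL1.3 libraries and 329 and 333 TPM in the sgNS libraries (log2 change -0.37 ± 0.027 SE, adjusted p = 1.3e-07). Its 4 guide libraries lay close together, with none near the controls. GABARAPL1, close in sequence to GABARAP (chromosome 12, 10212458 to 10223130, plus strand), had 7.08 and 7.05 TPM in the sgMETTL1.6 libraries, 8.22 and 8.28 TPM in the sgMETTL1.3 libraries and 11.02 and 11.6 TPM in the sgNS libraries (log2 change -0.51 ± 0.059 SE, adjusted p = 8.2e-06). GABARAPL2, also called GATE-16, moved least, with 101 and 96.2 TPM with sgMETTL1.6, 94.05 and 86.1 TPM with sgMETTL1.3 and 103 and 105 TPM with sgNS (log2 change -0.15 ± 0.041 SE, adjusted p = 0.0076), and its call was lost in 1 of 13 alternatives, without sgNS replicate 2 (adjusted p = 0.072, log2 change -0.18 to -0.11 over the alternatives). MAP1LC3B has a near copy, MAP1LC3B2, listed at 0.10 to 1.32 TPM over the 6 libraries, and a processed pseudogene, with which the authors' estimates could share reads.

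The promoters of MAP1LC3B and GABARAPL1 are shown because these genes fell furthest in the family, and that of CALCOCO2 because it fell furthest of all 35. Each runs from 250 bases before to 50 bases after the RefSeq transcription start (GRCh38.p14), written 5′ to 3′ on the gene's strand; this start lies inside each gene's GENCODE span. Of the 35 genes 31 had such a window, with 41 windows in all. Capitals mark matches, on both strands, to letters of 5 known motifs: CACGTG, the core bound by TFEB; TGATGNAA, part of the composite element of ATF4; GTAAACA, a FOXO core; TGACNNNGC, an NRF2 core; and TGACGTCA, the cyclic AMP response element. No matches overlapped in these 3 windows.
MAP1LC3B, chr16:87392086-87392385, plus strand: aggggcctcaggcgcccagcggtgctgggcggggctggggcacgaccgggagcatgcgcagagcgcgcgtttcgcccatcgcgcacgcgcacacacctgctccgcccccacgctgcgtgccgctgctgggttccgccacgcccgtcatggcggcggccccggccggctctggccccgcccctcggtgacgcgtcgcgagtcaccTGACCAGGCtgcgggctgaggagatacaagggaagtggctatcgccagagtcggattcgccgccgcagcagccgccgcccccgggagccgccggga
GABARAPL1, chr12:10212627-10212926, plus strand: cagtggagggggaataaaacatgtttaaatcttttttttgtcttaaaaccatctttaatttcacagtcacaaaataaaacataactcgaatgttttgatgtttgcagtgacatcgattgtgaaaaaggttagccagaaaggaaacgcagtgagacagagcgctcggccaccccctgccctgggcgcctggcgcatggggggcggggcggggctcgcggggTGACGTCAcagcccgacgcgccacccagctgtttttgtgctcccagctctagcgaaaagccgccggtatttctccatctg
CALCOCO2, chr17:48830785-48831084, plus strand: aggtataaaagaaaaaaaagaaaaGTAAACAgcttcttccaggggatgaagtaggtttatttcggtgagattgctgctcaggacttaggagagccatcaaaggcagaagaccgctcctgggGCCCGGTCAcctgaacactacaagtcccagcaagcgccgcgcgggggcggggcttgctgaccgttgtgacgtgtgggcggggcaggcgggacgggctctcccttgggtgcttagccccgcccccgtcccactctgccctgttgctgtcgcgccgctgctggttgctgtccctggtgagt
MAP1LC3B held TGACNNNGC 46 bases before the start, GABARAPL1 held TGACGTCA 30 bases before it, and CALCOCO2 held GTAAACA 226 bases before it and TGACNNNGC, on the opposite strand, 129 bases before it. Of the 41 windows, CACGTG was in 2 (ATG14 and ATG3, neither of which passed the test), or 4.88%, against 7.26% of all 35116 promoter windows. TGATGNAA was in none of the 41, against 3.62% of all windows. GTAAACA was in 2.44% against 3.42%, TGACNNNGC in 9.76% against 13.35%, and TGACGTCA in 2.44% against 1.85%. A match describes letters in the window and not a bound site.

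All 6 cargo receptors among the 35 genes fell over both guides (median log2 change -0.41), against 26.8% of all genes tested. In 5 of them the 4 guide libraries lay below both controls, against 27.3% of all genes tested. Other receptors of the pathway, given below, moved both ways. CALCOCO2, also called NDP52, which recognises bacteria and damaged mitochondria (chromosome 17, 48830988 to 48866522, plus strand), had the deepest fall of the 35 genes. Its levels were 68.7 and 70.01 TPM in the sgMETTL1.6 libraries, 77.6 and 74.5 TPM in the sgMETTL1.3 libraries and 122 and 123 TPM in the sgNS libraries. Mean TPM fell by 40.6% (log2 change -0.75 ± 0.035 SE, adjusted p = 1.4e-09), and over 13 alternative analyses the log2 change lay between -0.78 and -0.71. SQSTM1, or p62, which gathers ubiquitinated proteins into bodies and is itself degraded with them (chromosome 5, 179806398 to 179838078, plus strand), had 159.9 and 165 TPM in the sgMETTL1.6 libraries, 216 and 222 TPM in the sgMETTL1.3 libraries and 244 and 251 TPM in the sgNS libraries. Both guides lay below control, with sgMETTL1.6 the lower (log2 change -0.39 ± 0.031 SE, adjusted p = 2.5e-07). BNIP3L, or NIX, the receptor through which mitochondria are removed in maturing red cells (chromosome 8, 26382898 to 26505636, plus strand), had 22.6 and 19.5 TPM in the sgMETTL1.6 libraries, 17.7 and 18.7 TPM in the sgMETTL1.3 libraries and 29.1 and 28.5 TPM in the sgNS libraries (log2 change -0.54 ± 0.058 SE, adjusted p = 4.7e-06). OPTN, optineurin, which binds ubiquitinated mitochondria (chromosome 10, 13099449 to 13138308, plus strand), had 10.2 and 10.3 TPM in the sgMETTL1.6 libraries, 10.6 and 9.10 TPM in the sgMETTL1.3 libraries and 13.6 and 14.1 TPM in the sgNS libraries (log2 change -0.43 ± 0.064 SE, adjusted p = 7.3e-05).

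NBR1, a partner of SQSTM1, had 26.8 and 25.4 TPM with sgMETTL1.6, 28.3 and 27.3 TPM with sgMETTL1.3 and 32.6 and 34.1 TPM with sgNS (log2 change -0.30 ± 0.046 SE, adjusted p = 9.8e-05). Its change of -0.299 lay just short of 0.3 in size, and that of RB1CC1 just past it. TAX1BP1, a relative of CALCOCO2, moved least of the receptors. Its levels were 92.5 and 91.1 TPM with sgMETTL1.6, 103 and 98.1 TPM with sgMETTL1.3 and 102 and 102 TPM with sgNS (log2 change -0.09 ± 0.034 SE, adjusted p = 0.039), and its guide and control libraries overlapped. The call for TAX1BP1 was lost without sgMETTL1.6 replicate 2 (adjusted p = 0.067), sgMETTL1.3 replicate 2 (0.12), sgNS replicate 1 (0.17) or sgNS replicate 2 (0.14), and its log2 change ranged between -0.12 and -0.07 over the alternatives. Exons of MAP1LC3B, SQSTM1, OPTN, BNIP3L, TAX1BP1 and WIPI1, among others, overlap a gene on the opposite strand. Although the library kit marks strand, the sources used here do not give the strand setting of the authors' quantification.

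The regulator FOXO3, a transcription factor that switches on autophagy genes in muscle and haematopoietic cells of mice (chromosome 6, 108559835 to 108684774, plus strand), had 41.5 and 41.8 TPM in the sgMETTL1.6 libraries, 40.5 and 41.2 TPM in the sgMETTL1.3 libraries and 55.6 and 58.4 TPM in the sgNS libraries. Both guides lay below control by similar amounts (log2 change -0.46 ± 0.04 SE, adjusted p = 6.4e-07), and mean TPM fell by 27.6%.

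**Figure D2:**
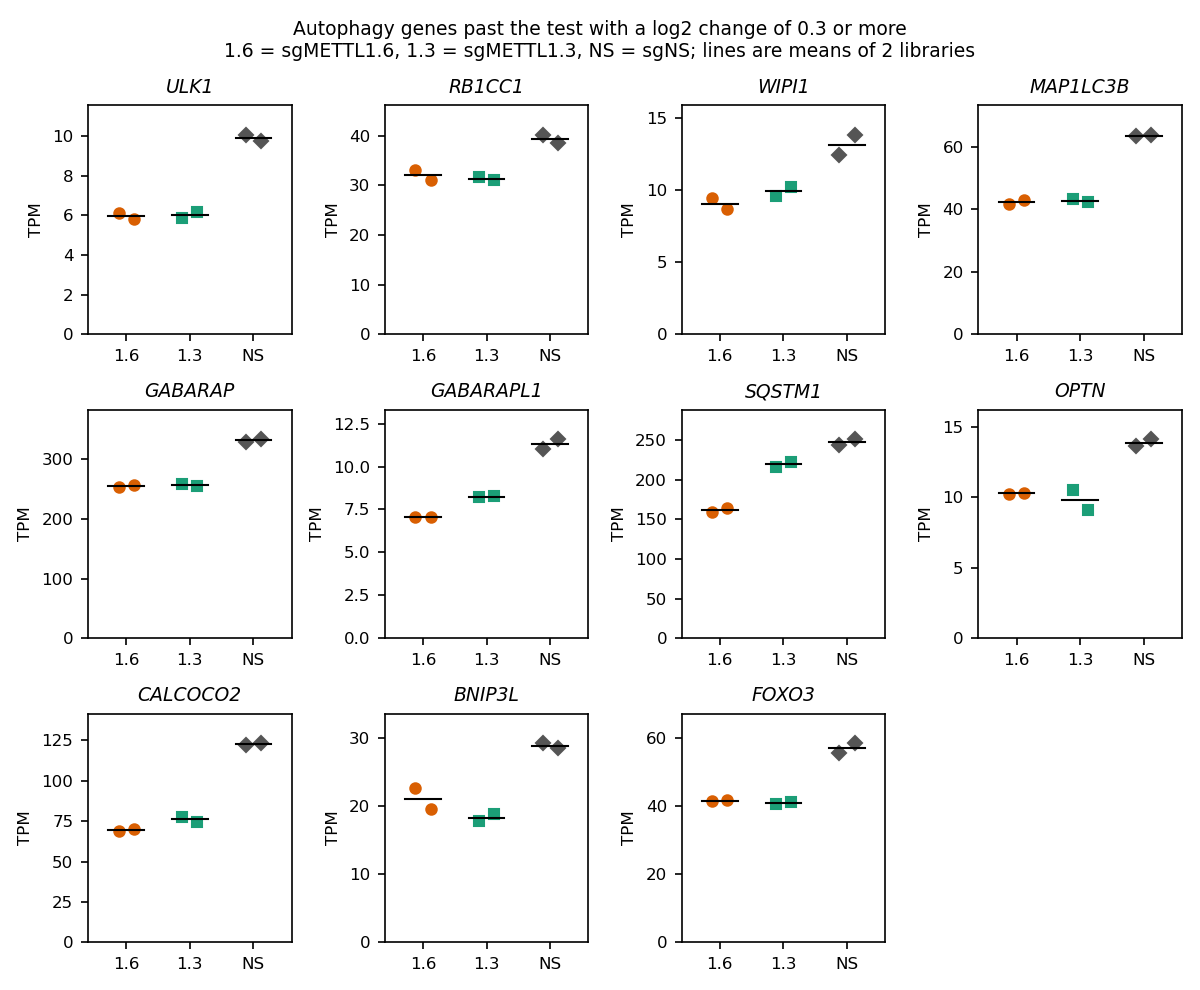
TPM (axes from 0) of the 11 autophagy genes past the test with a log2 change of at least 0.3 in size, for sgMETTL1.6, sgMETTL1.3 and sgNS. Points are single libraries and lines are means of 2 libraries. All 11 are lower with both guides, and SQSTM1 is lower with sgMETTL1.6 than with sgMETTL1.3.

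The guides were next taken one at a time. They share the sgNS libraries, so their changes are not independent. With sgMETTL1.6, 15 autophagy genes fell and 2 rose, against 25.3% and 25.7% of all genes tested. With sgMETTL1.3, 15 fell and 3 rose, against 24.2% and 34.3%. Of the 16 falls over both guides, 14 passed with each guide alone, and so did 2 of the 3 rises. The matching share over all genes tested is not given here, so these counts are not read as particular to the autophagy genes. Some of these single-guide calls were lost in alternatives: ATG12 with sgMETTL1.6 in 3 of 13 (adjusted p up to 0.21), ATG4A with sgMETTL1.6 in 7 of 13 (up to 0.26) and ATG2B with sgMETTL1.3 in 2 of 13 (up to 0.085). The genes that passed over both guides but not with each guide alone were GABARAPL2 (log2 change -0.08 with sgMETTL1.6, adjusted p = 0.17, and -0.21 with sgMETTL1.3, adjusted p = 0.0018), TAX1BP1 (-0.15, adjusted p = 0.0060, and -0.03, adjusted p = 0.61) and PIK3R4 (0.11, adjusted p = 0.086, and 0.19, adjusted p = 0.0039). With sgMETTL1.6 the rises numbered 1 without sgMETTL1.6 replicate 1, without either sgMETTL1.3 library or without sgNS replicate 1.

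The difference between the guides was tested directly. SQSTM1 was lower with sgMETTL1.6, at 162 ± 3.5 TPM, than with sgMETTL1.3, at 219 ± 4.2 TPM (SD, n = 2 each). The difference was -0.43 on the log2 scale (95% interval -0.51 to -0.36, limma, adjusted p = 5.5e-06), and it passed in all 13 alternative analyses (-0.45 to -0.39). Against sgNS, SQSTM1 changed by -0.60 with sgMETTL1.6 and by -0.17 with sgMETTL1.3. METTL1 mRNA and the summed monocytic markers were also lower in the sgMETTL1.6 libraries than in the sgMETTL1.3 libraries, and their part in this difference was not tested. CALCOCO2 (-0.13, adjusted p = 0.033), TAX1BP1 (-0.13, adjusted p = 0.035) and ATG4B (-0.14, adjusted p = 0.038) were also lower with sgMETTL1.6. Of the 35 genes 4 were thus lower with sgMETTL1.6 and 0 higher (limma; 6 lower and 3 higher at an unadjusted p under 0.05), against 15.8% lower and 7.23% higher of all genes tested. That balance rested on the scaling: over all genes 1721 were lower and 789 higher as deposited, 810 lower and 1102 higher after median-ratio scaling, and 959 lower and 931 higher after ribosomal protein genes were left out. After median-ratio scaling 1 autophagy gene was lower with sgMETTL1.6, SQSTM1, and 3 were higher (ATG12, GABARAPL2 and BNIP3L). With 1 library left out, the lower genes numbered 1 in each case except without sgMETTL1.6 replicate 2, which left 3 lower and 3 higher. For MAP1LC3B the difference was -0.01 (95% interval -0.11 to 0.08), for GABARAP -0.01 (-0.07 to 0.06), for ULK1 -0.01 (-0.17 to 0.14) and for FOXO3 0.03 (-0.07 to 0.13).

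**Figure D3:**
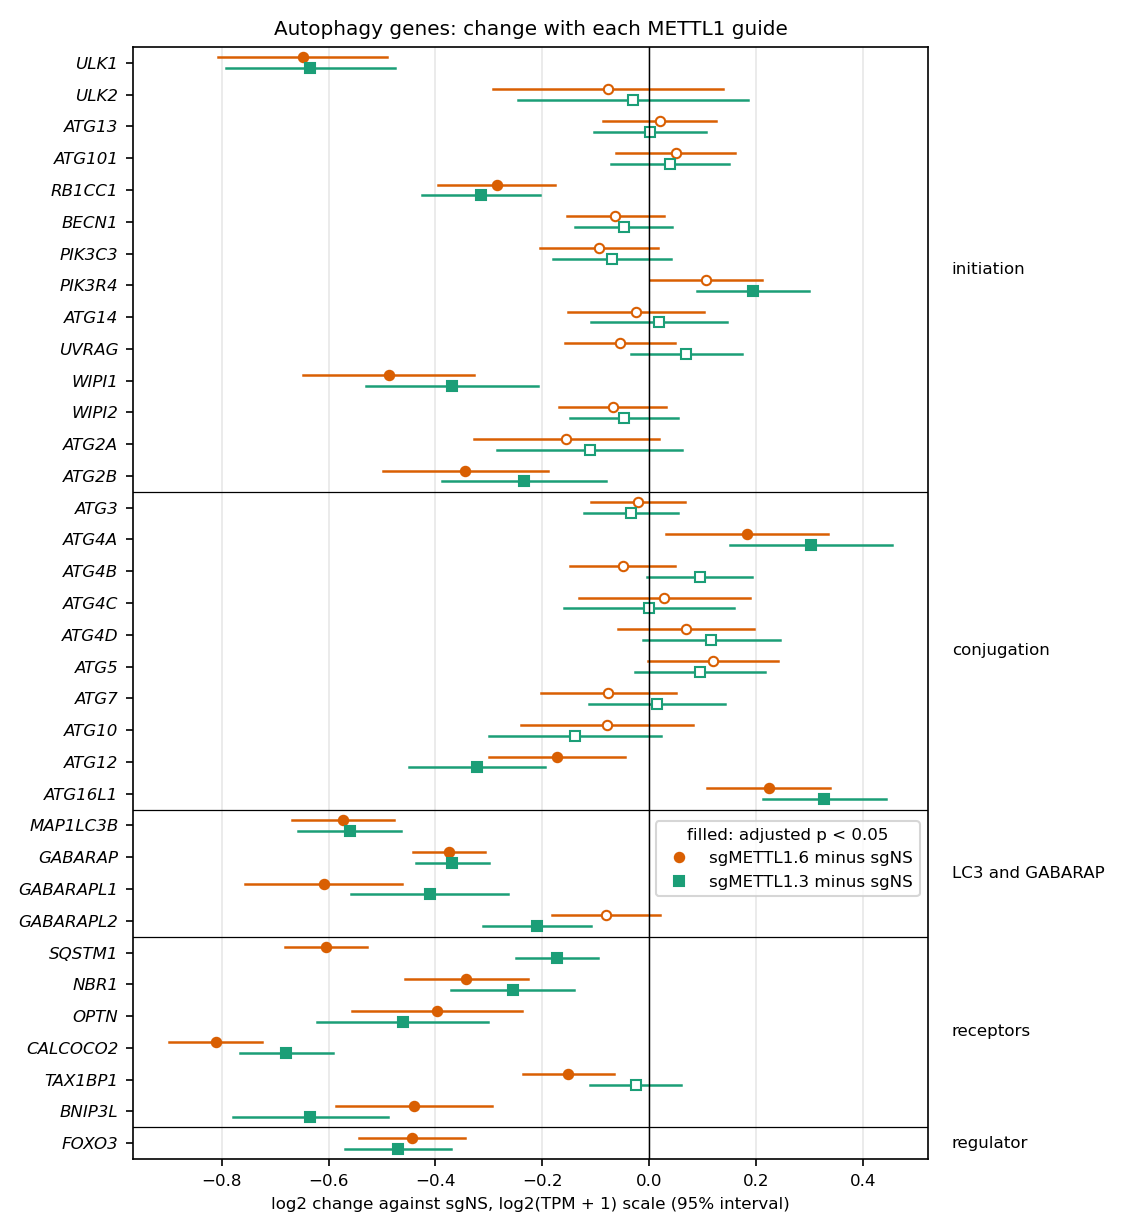
Log2 change of each autophagy gene with sgMETTL1.6 (circles) and sgMETTL1.3 (squares) against sgNS on the log2(TPM + 1) scale, by role, with 95% intervals. Filled symbols passed at an adjusted p under 0.05; SQSTM1 has the widest gap between the guides (-0.60 and -0.17).

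Part of the machinery is known in mouse fibroblasts to be induced by ATF4 or its partner CHOP, the factors of the stress response to amino acid shortage. In these libraries ATF4 had 389.9 and 401 TPM with sgMETTL1.6, 418 and 411 TPM with sgMETTL1.3 and 604 and 608 TPM with sgNS (log2 change -0.58), and DDIT3, which encodes CHOP, had 45.8 and 47.2 TPM with sgMETTL1.6, 54.7 and 57.8 TPM with sgMETTL1.3 and 128 and 128 TPM with sgNS (log2 change -1.31). Of the 12 genes on that mouse list (ATG16L1, MAP1LC3B, ATG12, ATG3, BECN1, GABARAPL2, SQSTM1, NBR1, ATG7, ATG10, GABARAP and ATG5), 6 fell and 1 rose, with a median log2 change of -0.13 over both guides. Of the other 23 autophagy genes, 10 fell and 2 rose, with a median of -0.08. Among all genes tested, 26.8% fell and 32.6% rose. ATG16L1, on the mouse list, rose, and the list's members ranged from -0.57 (MAP1LC3B) to 0.28 (ATG16L1). The other 23 autophagy genes ranged from -0.75 (CALCOCO2) to 0.24 (ATG4A). Whether the lower ATF4 and DDIT3 take part in the falls was not tested.

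Other genes of the pathway, 74 in 4 lists of which 72 were found in the table (3 under an older symbol), were read in the same model. Among the other core machinery, 5 of 12 tested genes fell and 1 rose (median log2 change -0.05), against 26.8% and 32.6% of all genes tested. WDR45, a WIPI relative, had 6.66 and 7.76 TPM with sgMETTL1.6, 8.08 and 7.11 TPM with sgMETTL1.3 and 13.8 and 14.3 TPM with sgNS (log2 change -0.84, adjusted p = 5.2e-07), and its exons overlap PRAF2 on the same strand. ATG16L2, a paralogue of ATG16L1, had 31.98 and 35.1 TPM with sgMETTL1.6, 34.1 and 35.6 TPM with sgMETTL1.3 and 55.1 and 63.03 TPM with sgNS (log2 change -0.77, adjusted p = 1.3e-07). TMEM41B, a lipid scramblase needed for autophagosome growth, had 28.6 and 28.5 TPM with sgMETTL1.6, 23.00 and 23.3 TPM with sgMETTL1.3 and 43.6 and 40.00 TPM with sgNS (log2 change -0.68, adjusted p = 6.6e-08). ZFYVE1, which marks the sites on the endoplasmic reticulum where autophagosomes form, also fell (log2 change -0.42). ATG16L2 thus fell where ATG16L1 rose.

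Other receptors and genes acting with them, PINK1, TBK1 and WDFY3 included, moved both ways. Of these 15 genes, 6 were lower and 6 higher (median log2 change -0.03), against 26.8% and 32.6% of all genes tested. CCPG1, the receptor that delivers endoplasmic reticulum to autophagosomes, fell furthest, with 21.7 and 21.5 TPM with sgMETTL1.6, 33.2 and 30.9 TPM with sgMETTL1.3 and 104 and 99.6 TPM with sgNS (log2 change -1.91, adjusted p = 9.1e-13). RTN3, which serves tubular endoplasmic reticulum, also fell (log2 change -0.38), as did the mitochondrial receptor FKBP8 (-0.18). BNIP3, the paralogue of BNIP3L, rose where BNIP3L fell, with 47.02 and 48.7 TPM with sgMETTL1.6, 48.6 and 47.3 TPM with sgMETTL1.3 and 38.7 and 38.2 TPM with sgNS (log2 change 0.31, adjusted p = 2.1e-05). It has 39 annotated pseudogenes that could share its reads.

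Of 13 tested genes of autophagosome fusion with lysosomes, 4 rose and 2 fell (median log2 change 0.05), against 32.6% and 26.8% of all genes tested. The membrane fusion proteins VAMP8, with 816 and 842 TPM with sgMETTL1.6, 823 and 784 TPM with sgMETTL1.3 and 625 and 647 TPM with sgNS (log2 change 0.36, adjusted p = 2.6e-07), and YKT6 (log2 change 0.35) rose. VPS18 rose (0.23) and VPS39 fell (-0.19), both of them subunits of the HOPS tethering complex. Of 24 tested genes of upstream control, 6 rose and 7 fell (median log2 change -0.04), against 32.6% and 26.8% of all genes tested. The inhibitors TRIB3, a pseudokinase that restrains AKT, and DDIT4, which restrains mTORC1, fell deeply (log2 changes -2.33 and -1.95). MLST8, a subunit of both mTOR complexes, had 42.6 and 49.9 TPM with sgMETTL1.6, 52.5 and 56.7 TPM with sgMETTL1.3 and 98.04 and 105 TPM with sgNS (log2 change -0.999, adjusted p = 1.2e-08), and AKT1S1, also called PRAS40, an mTORC1 inhibitor, rose (log2 change 0.39). TFEB, the main transcription factor of lysosome and autophagy genes, was singled out after its values were seen and had 7.94 and 8.33 TPM with sgMETTL1.6, 10.2 and 9.33 TPM with sgMETTL1.3 and 9.15 and 8.25 TPM with sgNS and did not pass (log2 change 0.03, 95% interval -0.11 to 0.17).

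**Figure D4:**
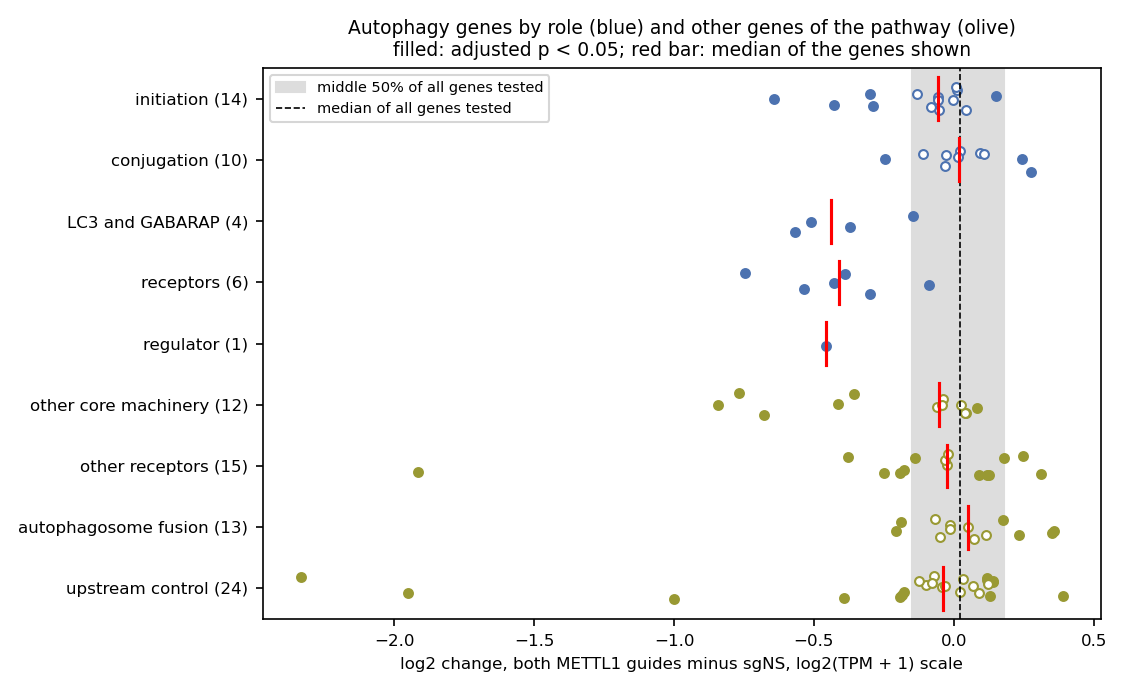
Log2 change over both METTL1 guides against sgNS of the autophagy genes by role (blue) and of other pathway genes (olive), with the number tested in brackets. Filled points passed at an adjusted p under 0.05, red bars are medians, and the grey band spans the middle 50% of all genes tested; the medians of the LC3 and GABARAP family (-0.44), the receptors (-0.41) and the 1 regulator (-0.46) lie below that band.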

How the data were processed

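RNA was sequenced from 6 Mono-Mac-6 libraries, 2 for each of 3 groups, with a stranded mRNA kit per the labels' protocols. The authors deposited TPM values for 18806 symbols; RSEM 1.2.31 and GRCh38 are named in the submitters' processing notes, and the sources used here name neither aligner nor annotation. TPM are scaled to 1 total in each library, so abundant genes shift all others, and depth is unknown. Columns were matched to samples by name.

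Testing was limited to the 10911 genes, all 35 autophagy genes among them, whose level averaged 1 TPM or more across the 6 libraries, and log2(TPM + 1) was fitted with limma 3.58.1 in R 4.3.3, with all 3 groups in 1 model and a variance trend. This scale understates changes of low genes. Benjamini-Hochberg adjustment ran over all genes tested.

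The 35 genes and the lists were chosen with earlier results of these data known. All 35 are named; values with full statistics go to those with an absolute log2 change of at least 0.3 or a difference between guides, and the others are given by values or intervals. Each list names up to 4 genes that passed, by lowest p, and TFEB was added to these. Positions are from GENCODE 29. Of the 5 promoter motifs, 3 were chosen after the data were seen.

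Alternatives were other pseudocounts, other filters, median-ratio scaling, a block for replicate number, and fits without ribosomal protein genes or without each library. A further marker gene was taken off the list for other cell types and is not reported here.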

Additional observations from a re-analysis of the deposited data

Results flagged for a closer look

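Among the 35 autophagy genes, 4 differed between the METTL1 guides by a direct test in the same model, all lower with sgMETTL1.6. Of all genes tested, 15.8% were lower and 7.23% higher with sgMETTL1.6, so the count of 4 was not above that background. SQSTM1 was lower with sgMETTL1.6 than with sgMETTL1.3 by a log2 difference of -0.43, the largest such difference of the 35 genes. The log2 differences of ATG4B (-0.14), CALCOCO2 (-0.13) and TAX1BP1 (-0.13) were smaller, and none of these 3 passed after median-ratio scaling (-0.10, -0.09 and -0.08). With 2 libraries in a group, no test for single outlying libraries was made.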

How the results depend on the processing

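Over both guides the count of falls stayed between 14 and 17 and that of rises between 1 and 4 in every alternative, and no called change turned its sign. The rises numbered 1 to 4 with 1 library left out. With sgMETTL1.6 alone the rises numbered 1 with no filter on low values and 1 without ribosomal protein genes, 4 with the replicate number as a block, and 1 to 2 with 1 library left out, against 2. Between the guides, the genes higher with sgMETTL1.6 numbered 1 at a mean of at least 5 TPM, 3 after median-ratio scaling, 2 without ribosomal protein genes, 3 with the replicate block and 0 to 3 with 1 library left out, against 0. The genes lower with sgMETTL1.6 numbered 1 with no filter, 1 after median-ratio scaling, 1 without ribosomal protein genes, 5 with a pseudocount of 0.1 TPM, 5 at a mean of at least 5 TPM, 6 with the replicate block and 1 to 3 with 1 library left out, against 4. Of all genes tested, the share lower with sgMETTL1.6 moved too, against 15.8%: 4.41% with no filter and 7.43% under median-ratio scaling. It was 8.72% once ribosomal protein genes were left out and 15.6% at a pseudocount of 0.1 TPM. It was 19.3% at a mean of at least 5 TPM and 23.0% with the replicate block. The share higher was 2.12% with no filter and 10.1% with the block, against 7.23%. The autophagy counts are thus not read as particular to these genes. The cause of these shifts was not tested, apart from the smaller number of samples when a library is left out. Where a group was left with 1 library, that library was assumed to vary like the other groups. Same-numbered libraries share only a number in the labels; their deviations correlated at 0.15 (the guides), 0.21 (sgMETTL1.6 and sgNS) and -0.01 (sgMETTL1.3 and sgNS) over 10911 genes. The replicate block moved the falls over both guides to 17 and the rises to 4. TPM carry no depth, so changes of low genes such as ULK2 cannot be given a counting limit.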
